A study of Arvicanthis niloticus with 28 samples.

Results

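The vascular basement membrane genes described here were 10 named genes, all 10 of which were present among the 18970 genes of the deposited tables, and all 10 passed the filter on low counts that left 13800 genes for testing. The members were chosen by name, not by their values, although earlier results of these data were known. They comprised the collagen IV chains Col4a1 and Col4a2, the laminin chains Lama4, Lama5, Lamb1, Lamb2 and Lamc1, the nidogens Nid1 and Nid2, and the perlecan gene Hspg2. They were followed across 28 rats by acellular capillary density group, by density itself and by blood glucose.

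The basement membrane is the sheet of extracellular matrix that surrounds the endothelial tube of every capillary and encloses the pericytes. Collagen IV protomers and laminin trimers each form a network, and nidogens and perlecan bind both networks and hold them together. In the diabetic retina a thickened capillary basement membrane is a classic lesion, and an acellular capillary is such a sleeve of basement membrane left after its endothelial cells and pericytes have gone.

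The animals were Nile rats (Arvicanthis niloticus), a diurnal rodent that can develop diabetes spontaneously, all labelled wild type and without treatment, with 1 RNA-seq library of the whole retinal vasculature per rat. Of the 28 rats, 4 were pre-dropout rats, with 17.1 to 17.9 acellular capillaries per mm2, and 24 were normal rats, with 5.90 to 14.5 per mm2. All 4 pre-dropout rats (T353M, T389M, T391M and T407M) were male, whereas the normal rats were 8 males and 16 females, so that sex partly overlaps with group. Random blood glucose spanned 57.4 to 443 mg/dL in the pre-dropout rats and 52.0 to 422 mg/dL in the normal rats, and exceeded 200 mg/dL in 2 pre-dropout and 3 normal rats. The vessels were loosened by osmotic lysis and washed by hand to remove neurons, the labels do not say which of the study's 2 diets a rat received, and ages are not given in the labels.

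Total expected counts per library ranged between 153108 and 10029198, with 2 libraries (T410F and T448M, both normal) under 1000000. CPM here are counts per 1000000 after each library was scaled by the trimmed mean of M-values (TMM). Endothelial markers were present in every library: Pecam1 had 732 to 1171 CPM in the pre-dropout rats and 354 to 1586 CPM in the normal ones, and Cldn5 1962 to 5342 CPM in pre-dropout, against 809 to 4326 CPM in normal libraries. Cdh5, the endothelial cadherin, had 231 to 413.7 CPM in pre-dropout and 93.6 to 465 CPM in normal libraries. The pericyte genes Pdgfrb and Rgs5 were present as well, at 84.4 to 460.0 CPM and 1463 to 7804 CPM in pre-dropout and 73.3 to 662 CPM and 1366 to 9003 CPM in normal libraries, whereas the rod gene Sag still reached 188 CPM in a pre-dropout and 1205 CPM in a normal library. Markers of Müller glia and astrocytes summed to 4545 to 9326 CPM in pre-dropout and 3425 to 10253 CPM in normal libraries. This sum exceeded the endothelial one in 2 of 4 pre-dropout and 8 of 24 normal libraries. Over all rats, Apoe and Vim had medians of 1789 and 1753 CPM, beside 6539 CPM for the glia and astrocyte sum. Whether these genes came from glia alone was not tested, so the sum does not measure the share of glial RNA. The ratio of count to TPM showed that gene lengths of 2 kinds underlay the TPM values, which divided the libraries into a first length set of 16 rats (all 4 pre-dropout and 12 normal rats) and a second of 12 normal rats. What made these sets is not given in the sources used here, and since the second set holds no pre-dropout rat, results are also given within the first.

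On the TPM scale, which is per length, Col4a1 stood highest among the 10 genes, with a median of 275 TPM over 28 rats (49.6 to 947 TPM), and its median place among all genes of a library was 510. Col4a2, whose product joins 2 Col4a1 chains in the common collagen IV protomer, followed at 166 TPM (31.6 to 420 TPM), and Col4a1 exceeded it in 26 of 28 libraries. Below the collagens came Lamb2 (median 78.7 TPM), Nid1 (70.1 TPM), Lama5 (59.2 TPM), Lamc1 (41.1 TPM), Lama4 (35.8 TPM) and Hspg2 (30.1 TPM), and at the bottom Lamb1 (11.7 TPM) and Nid2 (10.4 TPM). The steps from Col4a2 to Lamb2 and from Hspg2 to Lamb1 were clear, each holding in 27 of 28 libraries. Other neighbours below Col4a2 changed places more often: Nid1 exceeded Lama5 in 14 libraries, and Lamb1, below both steps, exceeded Nid2 in 13.

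The order rests on the lengths behind the TPM values. Relative to the median gene, the length used was 0.93 for Col4a1 and 2.999 for Col4a2, although the 2 genes encode chains of similar size, and 0.81 for Lama5, which encodes one of the longest laminin chains. In CPM, which is not per length, the median was 412 CPM for Col4a1 and 816 CPM for Col4a2. The members together took 0.303 ± 0.078% of a pre-dropout library and 0.259 ± 0.108% of a normal library's counts (SD, n = 4 and 24), with 0.234 to 0.410% in pre-dropout and 0.124 to 0.504% in normal libraries, so that the ranges overlapped.

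**Figure D1:**
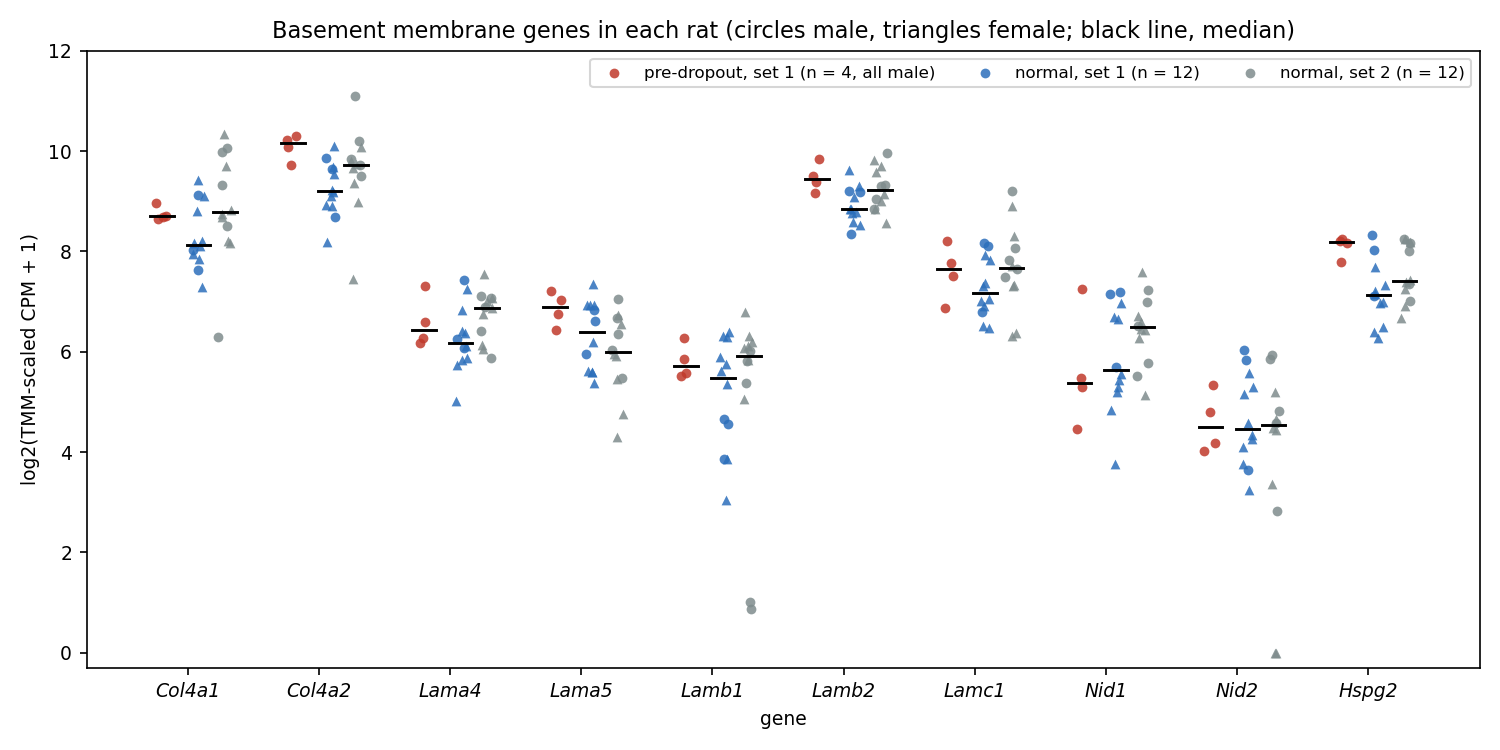
The vertical axis is log2 of CPM plus 1, scaled by the trimmed mean of M-values, for each of the 10 genes, with 1 point per rat and a black line at the median of the 4 pre-dropout rats, the 12 normal rats of the first length set and the 12 of the second. The 4 pre-dropout rats lie within the spread of the 24 normal rats for all 10 genes, and the lowest points are the 2 libraries with 0 counts of Nid2 and the 2 with 1 or 2 counts of Lamb1.

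Whether the matrix genes already differ in vessels just short of capillary dropout was asked by comparing pre-dropout with normal rats. None of the 10 members passed the test (edgeR, adjusted p under 0.05 and more than 2-fold), against 0% of all genes called, and every member's adjusted p was 1. Hspg2, Lama5 and Col4a2 had the highest log2 changes, at 0.62 ± 0.32, 0.59 ± 0.40 and 0.50 ± 0.33 (SE), and Nid1 the lowest, at -0.40 ± 0.51. No member reached an unadjusted p of 0.05, which 2.86% of all genes tested did, 394 of 13800. Of the members, 6 lay above 0 and 4 below, with a median log2 change of 0.12, beside -0.13 for all genes. In bulk RNA of this kind, fewer cells of a type and less RNA per cell cannot be told apart.

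Groups did not separate for any member (0 of 10, against 0% of all genes). All 4 pre-dropout rats exceeded the normal median for 5 members, Col4a1, Col4a2, Lama5, Lamb2 and Hspg2, a pattern that 7.88% of all genes tested showed. Against the median of the 8 normal males it held for 1 member, Lamb1, where 12.5% of all genes showed it. Of the 24 normal rats behind the first median, 16 were female.

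Among the collagen IV chains, Col4a1 had 498 CPM in T353M, 397.97 CPM in T389M, 419.2 CPM in T391M and 413 CPM in T407M, against 77.5, 388 and 1304 CPM as the lowest, median and highest of the 24 normal rats. The 4 pre-dropout rats sat close together in the middle of a wide normal range, with 12 normal rats below and 8 above all of them. Its log2 change was -0.13 ± 0.43 (SE) over all 28 rats and 0.33 ± 0.34 within the first length set, so that the direction turned with the libraries used.

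Col4a2 had 1194, 1269, 847 and 1089 CPM in T353M, T389M, T391M and T407M, against 173, 772 and 2203 CPM as the lowest, median and highest normal rat. Here 16 normal rats lay below all 4 pre-dropout rats and 1, T424M, lay above them. The log2 change was 0.50 ± 0.33 over all rats, 0.78 ± 0.30 within the first length set and 0.14 ± 0.37 with sex in the model. In human and mouse the Col4a1 and Col4a2 genes lie head to head on either side of a shared promoter, and the Nile rat annotation also lists them next to each other.

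The laminin alpha chains give the trimers of vessels their identity: Lama4 encodes the alpha chain that endothelial cells of all vessels make, and Lama5 the one that appears in mature vessels. Lama4 had 158 CPM in T353M and 75.9, 95.8 and 71.0 CPM in T389M, T391M and T407M, against 31.2, 84.7 and 187 CPM (lowest, median and highest normal rat). T353M was thus high and the other 3 pre-dropout rats were near the normal median. Its log2 change was 0.03 ± 0.37 (SE), and -0.24 without T353M.

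Lama5 had 130, 108, 148 and 85.7 CPM in T353M, T389M, T391M and T407M, against 18.8, 68.2 and 163 CPM as the lowest, median and highest normal rat. All 4 lay above the normal median, 14 normal rats lay below all of them and 1, T399F, lay above. The log2 change was 0.59 ± 0.40 (SE), 0.44 ± 0.35 within the first length set and 0.44 ± 0.47 with sex in the model.

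The beta and gamma chains complete the trimers. Lamb2, whose beta chain is typical of mature vessels and of the retina, had 668, 911, 571 and 722 CPM in T353M, T389M, T391M and T407M, against 323, 532 and 996 CPM (lowest, median and highest normal rat). It had the smallest spread of the 10 genes, with a coefficient of variation of 0.31 over the normal rats, and its log2 change was 0.33 ± 0.26 (SE), and 0.20 ± 0.33 without T389M.

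Lamb1, the widely used beta chain, had 56.6, 76.9, 46.4 and 44.6 CPM in T353M, T389M, T391M and T407M, against 0.839, 54.0 and 109 CPM as the lowest, median and highest normal rat. The normal males (median 23.4 CPM) lay lower than the normal females (median 62.3 CPM), and 6 of the 8 normal males lay below all 4 pre-dropout males. The log2 change was 0.21 ± 0.64 over all rats and 1.01 ± 0.69 with sex in the model, with an adjusted p of 1 in both, and 0.03 ± 0.75 without T389M. Its low end was 2 normal males, T447M and T448M, whose libraries held 2 and 1 expected counts of it.

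Lamc1, the gamma chain of nearly all vascular laminins, had 294, 182, 116 and 218 CPM in T353M, T389M, T391M and T407M, against 78.2, 171 and 590 CPM (lowest, median and highest normal rat). The pre-dropout rats were spread over the middle of the normal range, and the log2 change was -0.03 ± 0.40 over all rats, 0.28 ± 0.34 within the first length set and -0.40 ± 0.44 with sex in the model.

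Of the linkers, Nid1, which joins laminin to collagen IV, had 151 CPM in T353M and 21.01, 38.1 and 43.7 CPM in T389M, T391M and T407M, against 12.6, 86.1 and 192 CPM as the lowest, median and highest normal rat. In the pre-dropout group 3 rats were low and T353M was high, and 22 of the 24 normal rats fell inside the range these 4 spanned. The log2 change was -0.40 ± 0.51 (SE) and moved with single rats: it was -1.27 ± 0.62 without that rat (unadjusted p 0.0455, adjusted p 1 by edgeR) and -0.10 ± 0.57 without T389M. With sex in the model it was -0.66 ± 0.58. T353M also had the highest summed pericyte markers of the pre-dropout rats, 10082 CPM, against 2308 CPM in T389M, which had the least Nid1 of the 4. T391M and T407M had 2494 and 7645 CPM of these markers, at a similar 38.1 and 43.7 CPM of Nid1. The part of pericytes in this was not tested.

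Nid2, the second nidogen, had 39.5, 15.2, 17.3 and 26.8 CPM in T353M, T389M, T391M and T407M, against 0, 22.2 and 64.5 CPM (lowest, median and highest normal rat). It was at 0 counts in 2 normal libraries, T410F and T420F, where a count of 0 allows up to 15.3 and 0.448 CPM (3 counts, counting error only). Its log2 change was -0.11 ± 0.81 (SE), with the largest error of the 10, and -0.63 ± 0.93 with sex in the model.

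Hspg2, the core protein of perlecan, a heparan sulfate proteoglycan, had 303, 294, 219 and 287 CPM in T353M, T389M, T391M and T407M, against 76.6, 156 and 322 CPM as the lowest, median and highest normal rat. All 4 lay above the normal median and 17 normal rats lay below all of them, while 2 normal rats lay above. The log2 change was 0.62 ± 0.32 (SE, unadjusted p 0.063 by edgeR, adjusted p 1), and it was 0.25 ± 0.36 with sex in the model. The median was 257 CPM in the normal males and 144 CPM in the normal females.

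Within the first length set, where all 16 libraries share their lengths, 8 members lay above 0 and 2 below, with a median log2 change of 0.36, beside -0.12 for all genes. In the same comparison 11 of 12 endothelial markers lay above 0 (median 0.40) and 7 of 8 photoreceptor markers below 0 (median -1.37), and their part was not tested. Hspg2 (0.84 ± 0.33, SE), Col4a2 (0.78 ± 0.30) and Lamb2 (0.54 ± 0.26) had unadjusted p of 0.0174, 0.0166 and 0.0495 by edgeR, and adjusted p of 1. That is 3 of 10 members at an unadjusted p under 0.05, which 3.14% of all genes tested in these 16 rats had, and the members were not called. With sex in the model over all 28 rats, no member had an unadjusted p under 0.05, and 5 members lay above 0 and 5 below. Sex was not in the model within the first length set, where 3 of the 12 normal rats were male.

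**Figure D2:**
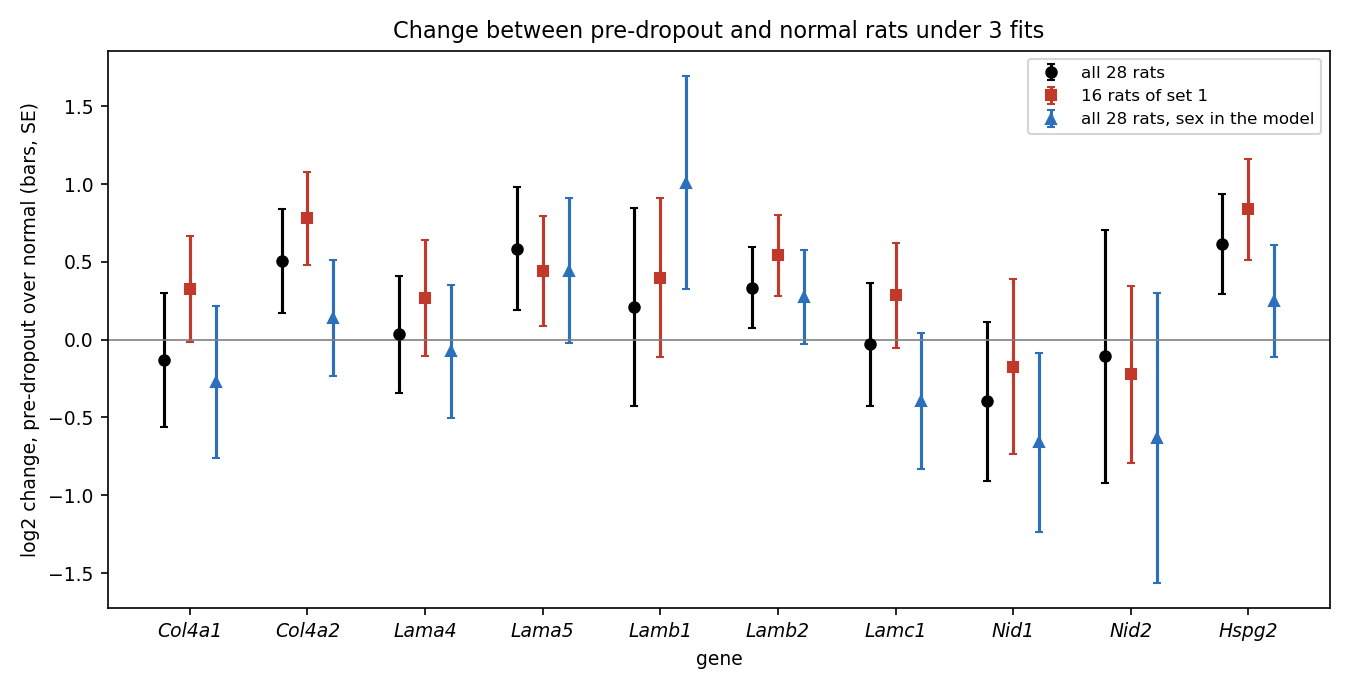
The vertical axis is the log2 change of pre-dropout over normal rats with its SE, for each gene, over all 28 rats (black), over the 16 rats of the first length set (red) and over all 28 rats with sex in the model (blue). Hspg2 stands at 0.62, 0.84 and 0.25 in the 3 fits, and Col4a1 at -0.13, 0.33 and -0.27.

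Cell type markers were measured beside these values. Between pre-dropout and normal rats, 11 of 12 endothelial markers lay above 0 (median log2 change 0.22) and 8 of 8 pericyte markers below 0 (median -0.43), while 7 of 8 photoreceptor markers lay below 0 (median -0.80), with none of them called. Summed endothelial markers were 6845 to 11786 CPM in pre-dropout rats and 3971 to 12827 CPM in normal rats, and summed pericyte markers 2308 to 10082 CPM in pre-dropout, against 1987 to 11040 CPM in normal libraries. Summed photoreceptor markers were 189 to 611 CPM in pre-dropout, against 100.3 to 3959 CPM in normal libraries. None of the 12 endothelial, 8 pericyte or 8 photoreceptor markers was at 0 in all rats of a group. Below 0 lay also 4 of 5 smooth muscle markers (median -0.51), all 5 fibroblast markers tested (-0.27), 5 of 8 Müller glia and astrocyte markers (-0.22) and 6 of 7 inner retinal neuron markers (-0.80). Erythrocyte markers summed to 478 to 3474 CPM in the pre-dropout and 25.9 to 4408 CPM in the normal rats, and retinal pigment epithelium markers to 6.002 to 265 CPM in pre-dropout, against 0 to 102 CPM in normal libraries. Microglia and macrophage markers summed to 4.85 to 23.4 CPM in pre-dropout, against 0 to 60.4 CPM in normal libraries, and lens markers to 0 to 16.01 CPM in pre-dropout, against 0 to 85.7 CPM in normal libraries. Their part in the members' changes was not tested.

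The other genes of the pathway gave no call either. Of 20 other basement membrane components, 19 were tested and 0 called, with 7 above and 12 below 0 and a median log2 change of -0.03. Col15a1, a collagen of the outer basement membrane zone, had the smallest unadjusted p among them, with 0 to 0.714 CPM in the pre-dropout rats and 0 to 59.6 CPM in the normal rats. Tinagl1, a matricellular protein of the vessel wall, had 228 ± 119 CPM in pre-dropout, against 179 ± 93.4 CPM in normal libraries (SD, n = 4 and 24).

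Of 18 genes that process collagen and laminin chains, 0 were called, with 4 above and 14 below 0 (median -0.19). P4ha3, a prolyl hydroxylase subunit, was at 0 in all 4 pre-dropout rats, against 0 to 6.77 CPM in the normal rats. P3h1, which hydroxylates proline in fibrillar collagens, had 13.7 ± 11.4 CPM in the pre-dropout and 33.0 ± 22.1 CPM in the normal rats.

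Of 14 matrix receptors, 0 were called, with 6 above and 8 below 0 (median -0.11). Itgav, an integrin alpha chain, had 105 ± 23.2 CPM in the pre-dropout and 139 ± 51.2 CPM in the normal rats, and Itga2, a collagen-binding integrin chain, 0 to 4.17 CPM in pre-dropout, against 0 to 15.9 CPM in normal libraries. Of 12 turnover genes, 11 were tested and 0 called, with 3 above and 8 below 0 (median -0.19). The proteases Adamts1 (34.4 ± 12.9 CPM in pre-dropout and 57.3 ± 42.8 CPM in normal rats) and Adamts9 (19.2 ± 9.37 CPM in pre-dropout and 8.39 ± 10.5 CPM in normal rats) had the smallest unadjusted p in that list. The medians of the 4 lists lay on both sides of that of all genes, -0.13.

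Within the 24 normal rats, density was examined as a slope, with sex in the model. No member passed (0 of 10, against 0% of all genes called), none reached an unadjusted p of 0.05, against 1.12% of all genes, and 5 slopes lay above and 5 below 0. Per 5 acellular capillaries per mm2, the lowest log2 slopes were those of Nid1 (-0.52 ± 0.42, SE), Nid2 (-0.44 ± 0.70) and Lama4 (-0.34 ± 0.33), and the highest that of Col4a1 (0.20 ± 0.40). The members' median was -0.10, beside 0.09 for all genes. Over the same slope, 8 of 8 photoreceptor markers lay above 0 (median 1.22), 10 of 12 endothelial and 8 of 8 pericyte markers below 0 (medians -0.30 and -0.29), and their part in the members' slopes was not tested.

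The normal rat with the highest density, T398F at 14.5 per mm2, had the least Nid1 (12.6 CPM), the least Lama4 (31.2 CPM) and close to the least Hspg2 (82.5 CPM) of the 24. Hspg2 was lowest in T401F, at 6.29 per mm2. T398F was also low in endothelial and pericyte markers (4260 and 3598 CPM, against normal medians of 7979 and 6371 CPM) and high in photoreceptor markers (1335 CPM), and their part was not tested. Its library held 8352992 counts.

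Blood glucose was taken as a slope over all 28 rats, with sex in the model. No member passed (0 of 10, against 0% of all genes called) and none reached an unadjusted p of 0.05, against 3.8% of all genes. Here 7 members lay below 0 and 3 above, with a median of -0.07 per 100 mg/dL, beside 0.01 for all genes. Nid1 had the lowest slope, -0.32 ± 0.17 (SE), then Lamc1 at -0.22 ± 0.12 and Col4a1 at -0.20 ± 0.14, with adjusted p of 1 for each. The Nid1 slope was -0.53 ± 0.20 without T446M (unadjusted p 0.0138, adjusted p 1 by edgeR), -0.34 ± 0.17 with sex and length set in the model (unadjusted p 0.0493) and -0.19 ± 0.22 in the normal rats alone.

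The 5 rats above 200 mg/dL had 21.01 to 90.4 CPM of Nid1 (median 38.1 CPM), against 12.6 to 192 CPM in the other 23 rats (median 86.6 CPM). For Lamc1 these ranges were 110 to 182 CPM (median 157 CPM), against 78.2 to 590 CPM (median 209 CPM), and for Col4a1 196 to 419.2 CPM (median 364 CPM), against 77.5 to 1304 CPM (median 427 CPM). In all 3 genes the rats above 200 mg/dL lay inside the range of the others, without its upper end. Over the same slope, 8 of 8 pericyte, all 5 smooth muscle and all 5 fibroblast markers tested lay below 0 (medians -0.17, -0.17 and -0.29), while 8 of 8 photoreceptor and 6 of 7 inner retinal neuron markers lay above 0 (medians 0.25 and 0.20), and their part was not tested.

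**Figure D3:**
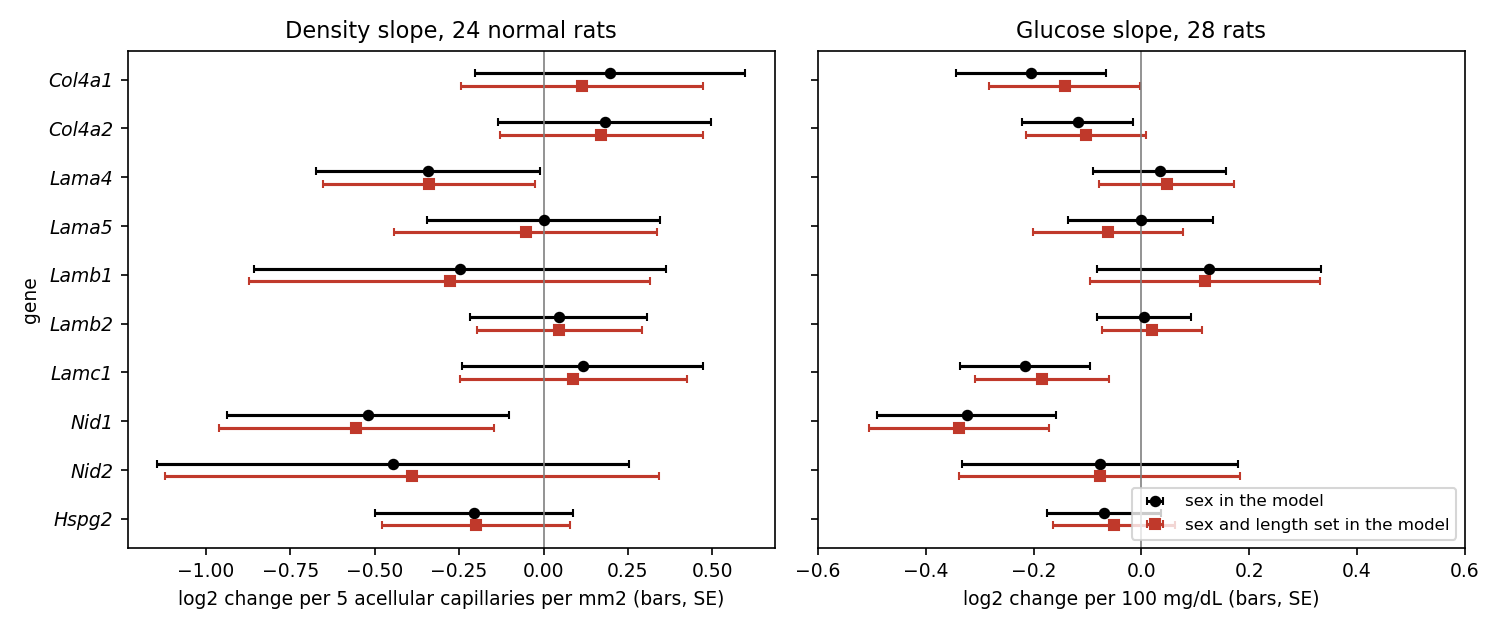
The left panel gives the log2 slope per 5 acellular capillaries per mm2 in the 24 normal rats and the right panel the log2 slope per 100 mg/dL of blood glucose in 28 rats, both with SE, with sex in the model (black) and with sex and length set (red). Nid1 lies lowest in both panels, at -0.52 and -0.32.

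The members were also compared between the length sets, among the normal rats and with sex in the model. Col4a1 had 77.5 to 1304 CPM (median 442 CPM) in the second set, against 155 to 684 CPM (median 280 CPM) in the first, and a log2 change of 0.83 ± 0.35 that did not pass (SE, unadjusted p 0.0214, adjusted p 1 by edgeR). The range of the second set enclosed that of the first. No member was called, against 0.0233% of all genes (3 of 12874), and 1 of 10 members had an unadjusted p under 0.05, against 2.84% of all genes. In this comparison 8 members lay above 0 and Lama5 and Nid2 below. In the second set 8 of 8 pericyte markers lay above 0 (median 0.53) and 8 of 8 photoreceptor markers below 0 (median -1.37). Above 0 lay also 11 of 12 endothelial markers (median 0.21), all 3 smooth muscle markers tested (0.38) and 4 of 5 fibroblast markers tested (0.44). Of the 8 Müller glia and astrocyte markers, 6 lay below 0 (median -0.39). The part of these cell types was not tested.

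The members differed in how far they varied from rat to rat. Over the normal rats the coefficient of variation was highest for Nid2 (0.72), Col4a1 (0.66) and Lamb1 (0.60) and lowest for Lamb2 (0.31). Set beside genes of similar mean level (within 2-fold), Col4a1 was variable for its level, as 13.1% of 467 such genes varied more, and Lamb2 was steady, as 81.4% of 361 such genes varied more. Nid2 was not variable for its level: 64.8% of 5073 such genes varied more.

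How far the members varied together was examined over the 28 rats. Of the 45 pairs, 16 were correlated (Pearson's r on log2 of CPM plus 1, permutation p adjusted over the 45 pairs under 0.05), all positively, and 18 by Spearman's rho. With the 13799 other genes tested, a member's median r lay between -0.22 (Lamc1, 25.6% of them positive) and 0.11 (Lamb1, 67.8% positive). The closest was Col4a2 with Lamc1 (r = 0.81, rho = 0.75, permutation p 1e-05, the smallest that 100000 permutations can give, adjusted p 0.00015), followed by Lamb2 with Lamc1 (r = 0.79, rho = 0.80, permutation p 1e-05, adjusted p 0.00015) and Col4a2 with Lamb2 (r = 0.74, rho = 0.81, permutation p 1e-05, adjusted p 0.00015). Without the 2 rats farthest from the median of the first gene of each pair, r was 0.79, 0.75 and 0.84. Within the first and the second length set r was 0.79 and 0.83 for Col4a2 with Lamc1, 0.73 and 0.85 for Lamb2 with Lamc1, and 0.87 and 0.63 for Col4a2 with Lamb2.

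Lamc1 was past the threshold with 6 other members and Col4a2, Lamb2 and Hspg2 with 5 each. Lamb1 and Nid2 were past it with none (r at most 0.24), and Lama5 with Col4a2 alone (r = 0.54). The neighbouring genes Col4a1 and Col4a2 reached r = 0.54 and rho = 0.69 (permutation p 0.00353, adjusted p 0.0132), with r = 0.68 without the 2 farthest rats, 0.85 within the first length set and 0.38 within the second. The 2 nidogens had r = 0.20 (permutation p 0.311, adjusted p 0.482) and rho = 0.49 (permutation p 0.00935, adjusted p 0.0281), so that they passed by rank alone, with r = 0.15 without the 2 farthest rats, 0.86 within the first length set and -0.02 within the second. Over the 45 pairs the median r was 0.47 within the first set and 0.19 within the second, and 20 and 3 pairs were past the threshold.

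The members that went together also went with the summed markers of vascular cells. Of 70 relations with 6 marker sums and total counts, 22 had an adjusted p under 0.05. The sums add CPM, so that the highest genes weigh most. Over 28 rats Rgs5 had a median of 4503 CPM, beside 6371 CPM for the pericyte sum, and Cldn5 2780 CPM, beside 7979 CPM for the endothelial sum. Lamb2 and Hspg2 were closest to the endothelial sum (r = 0.74, rho = 0.72, and r = 0.71, rho = 0.65; adjusted p 0.0007 and 0.00126 by permutation), Nid1 was closest to the pericyte sum (r = 0.73, rho = 0.72, adjusted p 0.0007), and Lamc1 followed endothelial, pericyte, smooth muscle and fibroblast sums alike (r between 0.61 and 0.67). For 6 members the relation with the photoreceptor sum was negative and past the threshold, with Lamc1 lowest (r = -0.64, rho = -0.70, adjusted p 0.0023). Without the 2 farthest rats these r were 0.68, 0.64, 0.71 and -0.65, and within the first and the second length set 0.77 and 0.67 for Lamb2, 0.69 and 0.75 for Hspg2, 0.72 and 0.58 for Nid1, and -0.54 and -0.70 for Lamc1. By Pearson's r, Lama5, Lamb1 and Nid2 were past the threshold with no sum, and no member was with total counts. By rank, Nid2, whose r includes 2 libraries at 0 counts, was past it with the pericyte and fibroblast sums (rho = 0.47 and 0.48, adjusted permutation p 0.0368 and 0.0301).

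**Figure D4:**
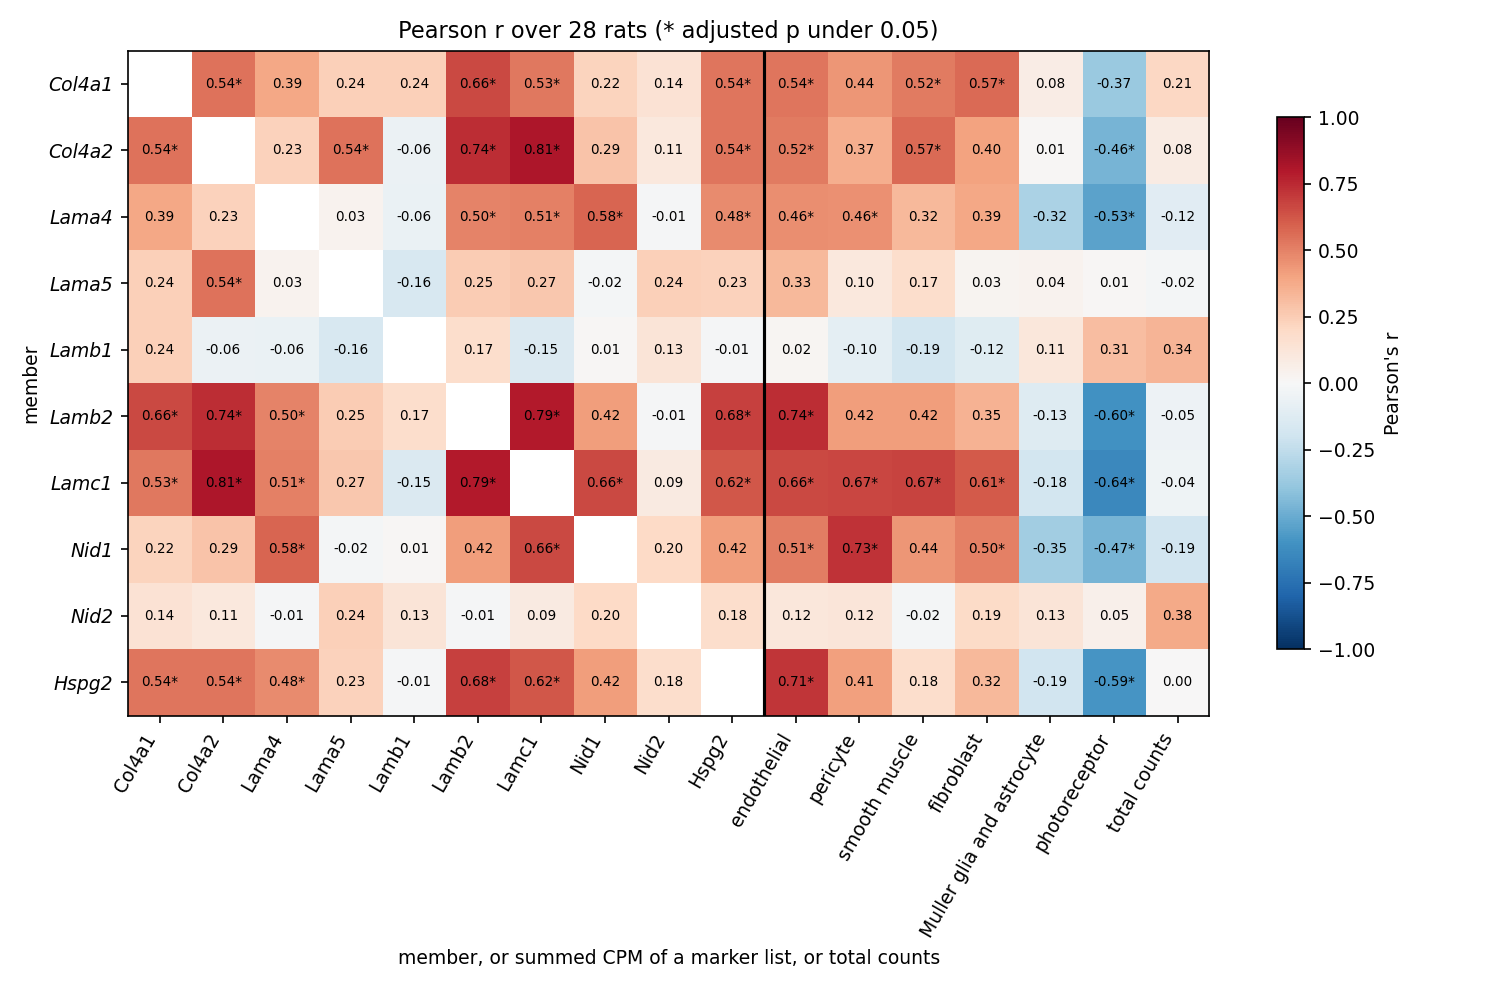
Each cell gives Pearson's r over 28 rats between a member (rows) and another member, a marker sum or the total counts (columns), on log2 of CPM plus 1 (log10 for total counts), with an asterisk where the adjusted permutation p is under 0.05. Col4a2, Lamb2, Lamc1 and Hspg2 share the strongest cells, up to 0.81, and the rows of Lamb1 and Nid2 carry no asterisk.

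As a description over the same 28 rats, the genes whose pattern was most like that of Col4a1 among 13799 others were Wnk1 (r = 0.77), Sp140 (0.77), Luzp1 (0.75), Sept2 (0.75) and Kpnb1 (0.75), and Lamb2 stood at place 48 and Col4a2 at place 225. For Lama5 they were Zc3h7b (0.74), Pkd1 (0.69), Mkl2 (0.67), Btbd2 (0.66) and Dock9 (0.65), with Col4a2 at place 56.

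Ratios were taken between genes that share a trimer, or whose products can stand in for each other. As log2 ratios of TPM plus 1, in which the added 1 weighs on low genes, Col4a1 over Col4a2 was 0.42, 0.01, 0.67 and 0.28 in T353M, T389M, T391M and T407M, a mean of 0.35 ± 0.27 in the pre-dropout rats, against 0.84 ± 0.80 in the normal rats (SD, n = 4 and 24). The 4 pre-dropout values lay inside the normal range (-1.75 to 2.40), and the exact permutation test over all 20475 splits, two-sided, gave p = 0.221, 0.373 adjusted over the 4 ratios. Within the first length set the normal rats averaged 0.73 ± 0.30, and the exact permutation p was 0.0429, 0.171 adjusted.

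Lama4 over Lama5 was -1.37 ± 0.39 in pre-dropout vessels, against -0.74 ± 0.98 in normal vessels (exact permutation p 0.215, adjusted p 0.373). In normal vessels, which chain stood higher depended on the lengths: on expected counts plus 0.5 their mean was 0.37. In pre-dropout vessels it was -0.28 on that scale, so that Lama5 stood higher on both. Lamb1 over Lamb2 was -2.97 ± 0.19 in pre-dropout, against -3.12 ± 1.23 in normal vessels (exact permutation p 0.8294, adjusted p 0.8294). Against the normal males alone, at -4.02 ± 1.43, the difference was 1.05 (exact permutation p 0.184, adjusted p 0.513), and it was 0.35 over all rats with 0.1 TPM added. Those males include T447M and T448M of the second length set, at -6.469 and -5.665, with 2 and 1 expected counts of Lamb1. Within the first length set, with both sexes, the difference was 0.04. Nid1 over Nid2 was 1.87 ± 0.67 in pre-dropout, against 2.33 ± 0.90 in the 22 normal vessels with a count of Nid2 (exact permutation p 0.329, adjusted p 0.439). In T410F and T420F, at 0 counts of Nid2, the ratio (6.33 and 6.48) is set by the added 1, and with them the normal mean was 2.67 ± 1.44. No ratio differed between the groups past the adjusted threshold. The second length set carried much of the normal spread: for Col4a1 over Col4a2 the SD was 1.11 in its 12 rats and 0.30 in the 12 normal rats of the first set.

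**Figure D5:**
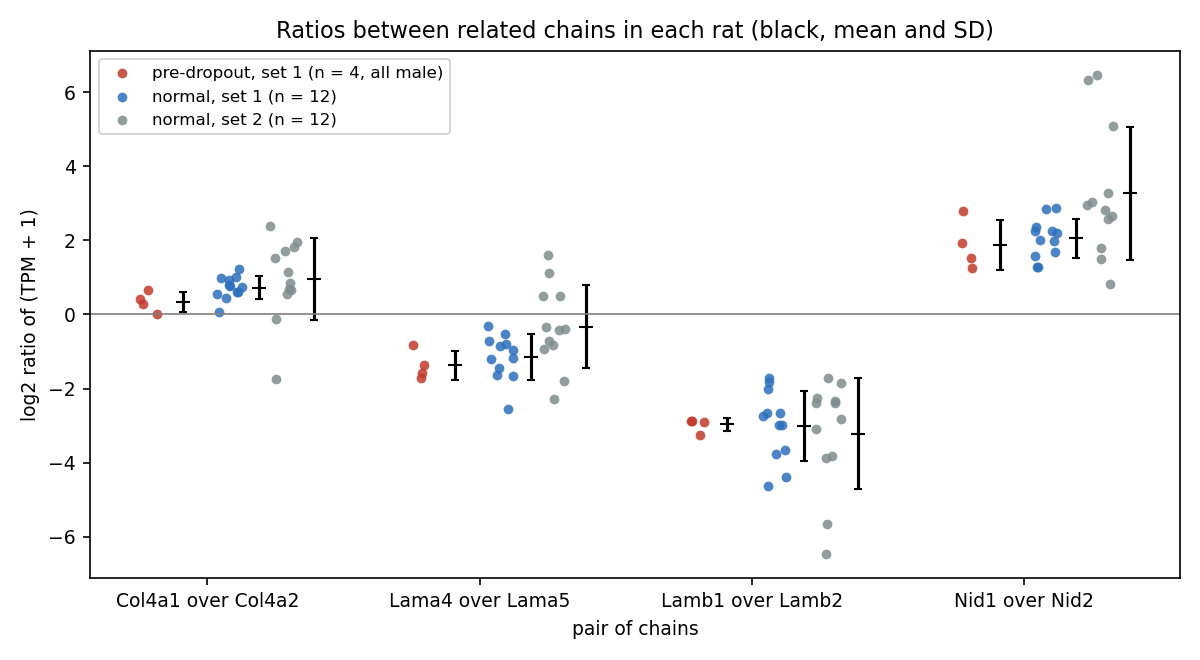
The vertical axis is the log2 ratio of TPM plus 1 between the named chains, with 1 point per rat for the pre-dropout rats, the normal rats of the first length set and those of the second, and the mean with SD in black. The 4 pre-dropout rats lie inside the normal range for every ratio, and the second set spreads widest. The 2 highest points of Nid1 over Nid2 are the libraries at 0 counts of Nid2.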

How the data were processed

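RNA of isolated retinal vasculature from 28 rats was sequenced by the authors, with 1 library per rat. The deposited tables hold expected counts and TPM (transcript abundance per length, scaled to 1000000 per library), both with mouse gene symbols and mouse Ensembl identifiers. They were taken as the authors' cross-species values, in which assembled Nile rat transcripts are assigned to mouse genes, and the authors' later counts from the Nile rat genome were not used here. The expected counts deposited by the authors were rounded to whole numbers for the tests. RSEM estimates of reads shared between similar genes can move counts between genes, the collagen IV chains included. In T348M, for example, expected counts were 420.44 for Col4a1, 1282.62 for Col4a2 and 39.34 for Lamb1. Those of Lama5, Lamb2 and Lamc1 in that library were whole numbers.

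Groups followed the density given in the labels: 4 pre-dropout rats (17 to 18 per mm2) and 24 normal rats (below 16). Since each library is 1 rat, p-values measure the spread between rats. Glucose is in mg/dL, a unit taken from the study's methods. Counts were tested with edgeR 4.0.16 (quasi-likelihood F test, TMM scaling, filterByExpr with a minimum count of 10, Benjamini-Hochberg over all genes tested) in R 4.3.3. The limits for a call were those of the study's methods, 0.05 for the adjusted p and, between groups, a change above 2-fold. EBSeq, which the authors used, was not available. Slopes were fitted per 5 acellular capillaries per mm2 (normal rats) and per 100 mg/dL (all rats), with sex as a covariate. Chain ratios used an exact permutation test on log2 of TPM plus 1, and correlations 100000 permutations, each adjusted within its family. The fits and tests were first run on simulated data, in part with less spread between rats than these data have. That was a check of the code, and it does not measure how small a change 4 pre-dropout rats could reveal. Alternatives used DESeq2 1.42.0, limma 3.58.1, other scalings, filters, pseudocounts and covariates, and left out rats.

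The length sets were found from the ratio of expected count to TPM over genes with at least 50 counts: the SD of its log2 difference was at most 0.0075 within sets and 0.034 to 0.057 between sets (tolerance 0.02). They were noticed after the tables were examined. At library totals of 153108 to 10029198 counts, 3 counts, the limit a count of 0 allows, correspond to between 0.302 and 15.3 TMM-scaled CPM. Such limits cover counting error only.

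The text names the 10 members and the 5 genes most like Col4a1 and Lama5. From each further list it names the called genes or, with none called, the 2 of smallest unadjusted p between the groups. It also names the cell type markers Sag, Rgs5, Pdgfrb, Cldn5, Cdh5, Pecam1, Apoe and Vim. Members, lists and tests were chosen with earlier results of these data known. Mouse symbols of 9 of the 10 members were found in the Nile rat RefSeq annotation (mArvNil1.pat.X), used for names and neighbours only.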

Additional observations from a re-analysis of the deposited data

Results flagged for a closer look

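Among the 4 pre-dropout rats, the log2 ratio of Lamb1 over Lamb2 was -3.25 in T407M, against -2.87, -2.88 and -2.89 in T353M, T389M and T391M. The gap to the nearest of the others took up 0.936 of the range of the 4 values, which is why it stands out, and chance alone marks about 1 in 20 such groups. T407M lay inside the range of the normal rats (-6.47 to -1.72). Of the 14 values examined in this way, the 10 members' CPM and the 4 ratios, this was the 1 marked.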

How the results depend on the processing

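No member was called under any of the 17, 7 and 14 alternatives tried for the group, density and glucose fits. Of 380 values of members under them, 338 kept the sign of the reported value and 42 did not, and the lowest adjusted p was 0.218. With limma-voom between groups, 4 of 10 members had an unadjusted p under 0.05, Hspg2 (log2 change 0.91, p 0.000426), Col4a2 (0.77, p 0.00187), Lamb2 (0.51, p 0.00428) and Lama5 (0.76, p 0.0142), against 0 of 10 with edgeR. Such values were more frequent among all genes too: 1307 of the 13800 genes tested had one with limma-voom, against 394 with edgeR. The log2 values were not centred on the median of all genes. That median itself moved, between groups, to -0.18 with DESeq2 size factors, 0.08 on log2(TPM + 1) and 0.21 on log2(TPM + 0.1), against -0.13. On these TPM scales 55.3% and 60.9% of genes lay above 0, against 41.1%.

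Between pre-dropout and normal rats, the sign turned for Col4a1 (0.36 with limma-voom, 0.11 on log2(TPM + 1), 0.12 on log2(TPM + 0.1), 0.13 with glucose as a covariate, 0.33 within the first length set, 0.31 with length set as a covariate) and for Lamc1 (0.25, 0.060, 0.063, 0.16, 0.28 and 0.27 in the same order). It turned for Nid2 with limma-voom (0.18), on log2(TPM + 1) (0.23) and on log2(TPM + 0.1) (0.50), and for Lama4 with sex as a covariate (-0.076) and in males only (-0.084). Leaving out each pre-dropout rat in turn, Lama4 ranged between -0.24 (without T353M) and 0.20, Lamc1 between -0.26 and 0.16 (without T391M), Nid2 between -0.42 and 0.06, Nid1 between -1.27 (without T353M) and -0.10, Lamb1 between 0.03 (without T389M) and 0.35, and Lamb2 between 0.20 (without T389M) and 0.46. All adjusted p were above 0.05, and the causes were not tested. The length sets, and the Nid1 over Nid2 ratio without libraries at 0 counts of Nid2, were added as alternatives after the data were seen.

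For density, slopes turned for Lama5 (-0.022 without the 2 libraries under 1000000 counts, -0.053 with sex and length set) and Lamb2 (-0.021 without those libraries). For glucose, slopes turned for Lama5 (0.00063 with DESeq2 size factors, 1.9e-05 with DESeq2, 0.042 with no covariate), Lamb1 (-0.042 with no covariate, -0.015 in normal rats only), Nid2 (0.022 and 0.021 in the same 2 settings) and Hspg2 (0.026 with no covariate). Lamb2, with a slope near 0, turned with no filter (-0.0011), on log2(TPM + 1) (-0.020), with log2 of glucose (-0.015), in normal rats only (-0.092) and without the shallow libraries (-0.021). Leaving out each rat above 200 mg/dL in turn gave -0.016 to 0.079 for Lama4, -0.12 to 0.073 for Lama5, -0.039 to 0.24 for Lamb1 and -0.094 to 0.030 for Lamb2, and -0.53 (without T446M) to -0.25 for Nid1. Slopes also moved for Col4a2 and Hspg2 (-0.24 and -0.16 without T389M) and Nid2 (-0.28 without T446M).

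Counts of called genes, none of them members, differed from 0 as follows: 72 with no filter, 5 with DESeq2 and 4 with limma-voom between groups, 45 with no filter for density, and 152 with no filter, 21 with DESeq2 and 2 in normal rats only for glucose. The count of correlated pairs was 16 over all rats and 3 in the second length set alone, and 20 in the first, and the cause was not tested. Nid2 was at 0 counts in 2 libraries, of 153108 and 6552946 counts, and Lamb1 at 2 and 1 counts in 2 others, of 2054974 and 934250 counts, and the cause was not tested. No paired analysis was possible because the groups share no rat numbers.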
